A study of Mus musculus with 8 samples.

Results

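The genes of the Rab3 and Rab6 GTPases were described in whole ovaries of female 3-week-old mice. They were the 6 rows with the symbols *Rab3a*, *Rab3b*, *Rab3c*, *Rab3d*, *Rab6a* and *Rab6b*, out of 45583 symbols in the gene count table. *Rab3b* and *Rab6b* had been picked because their counts were lower in ovaries labelled GOAT KO than in ovaries labelled WT, and the others are their paralogs. The differences between these groups are therefore given for the 6 genes as a description, with no p, and how many of them pass the study's filter is given only beside the share of all genes that do.

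The study asked what loss of ghrelin-O-acyltransferase (GOAT, encoded by *Mboat4*), the enzyme that acylates ghrelin, does to the juvenile ovary. Both groups were on a C57/Bl6 background and came from crosses of heterozygous parents, 4 mice being WT and 4 GOAT KO, a deletion carried by every tissue of the animal. One ovary per mouse was sequenced, and libraries are named here by the animal number.

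Rab proteins are small GTPases that switch between a GTP-bound form, which recruits effectors to a membrane, and a GDP-bound form, which is taken off the membrane. Rab3 proteins sit on secretory and synaptic vesicles and act in their docking and release. Rab6 proteins act at the Golgi apparatus, both in transport back to the endoplasmic reticulum and in the carriers that leave the trans-Golgi for the cell surface. Rab6A is found in most cells, while Rab6B is best known from neurons.

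*Rab6a* holds 2 neighbouring copies of its exon 4, which the annotated transcripts shown here use one at a time, and *Rab6b* holds a single exon at the same place. The 3 exons are shown because they are the stretch in which the junction reads described further on tell the *Rab6a* forms apart. Each is 106 bases long and coding, read 5′ to 3′ on the plus strand of GRCm38, with capitals at the 38 positions where the 3 are not all the same. The upstream copy lies at chr7:100629666-100629771, the downstream copy at chr7:100629838-100629943 and the *Rab6b* exon at chr9:103161064-103161169.
Rab6a exon 4, upstream copy: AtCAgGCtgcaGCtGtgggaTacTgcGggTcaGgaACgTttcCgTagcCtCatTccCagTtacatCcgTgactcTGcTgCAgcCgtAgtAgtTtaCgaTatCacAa
Rab6a exon 4, downstream copy: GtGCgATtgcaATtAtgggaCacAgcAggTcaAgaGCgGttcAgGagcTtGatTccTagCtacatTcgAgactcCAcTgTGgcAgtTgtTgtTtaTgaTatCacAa
Rab6b exon 4: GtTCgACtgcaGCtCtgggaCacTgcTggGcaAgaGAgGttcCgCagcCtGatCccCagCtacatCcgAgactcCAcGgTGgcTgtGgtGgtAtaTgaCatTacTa
The *Rab6a* copies differed from each other at 30 positions. The *Rab6b* exon differed from the upstream copy at 30 positions and from the downstream copy at 23.

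Reads of 50 bases separated the paralogs. Over the whole coding sequence of 624 bases, *Rab6a* and *Rab6b* were identical at 489 positions (78.4%), and the pairs of Rab3 genes were identical at 69.8% to 75.1% of aligned positions. The longest identical run between any such pair was 33 bases, and no 50-base stretch of a member's transcripts occurred in those of another member. *Rab3a* (chr8:70754679-70758677), *Rab3d* (chr9:21907491-21918192) and *Rab6b* (chr9:103111787-103185276) shared no 50-base stretch with any annotated gene. Of the stretches of *Rab3b* (chr4:108879063-108943324), 7.70% were shared with 8030443G20Rik, an antisense gene that held 4 counts over all libraries. *Rab6a* (chr7:100607410-100641268) shared 18.97%, most of it with *Mrpl48*, which overlaps it on the opposite strand and held 2836 counts. *Rab3a* also overlaps *Mpv17l2* on the opposite strand, with 2296 counts, but only at chr8:70758649-70758677, which is shorter than a read of 50 bases. Whether the counting used the strand is not given in the sources used here. The values of *Rab6a* and, over that short stretch, of *Rab3a* carry that uncertainty.

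The libraries held between 16147216 and 19481798 counts on genes. *Mboat4* was at 1, 1, 1 and 3 counts in the libraries labelled WT and at 5, 7, 7 and 8 in those labelled GOAT KO, which is opposite to the labels in direction. These counts were below the filter on low counts. Without the filter the log2 fold change was 2.09 (SE 0.53), with an unadjusted p of 0.00111 and an adjusted p of 0.721 in edgeR's quasi-likelihood test (Benjamini-Hochberg). Reads outside the deleted part would not check the genotype, and which part is deleted is not given in the sources used here. The groups are therefore called by their labels throughout. Markers of the labelled tissue were present, with the summed level of 6 granulosa cell markers between 4614 and 5809 CPM (counts scaled to library size by edgeR's TMM method) and that of 9 oocyte markers between 1165 and 1431 CPM in all 8 libraries. Libraries stood apart. The summed level of 6 adipose markers was 342 CPM in GOAT KO 1139, against 16.6 to 22.7 CPM in the other libraries labelled GOAT KO and 8.80 to 20.6 CPM in WT. The steroidogenic genes *Star* and *Cyp17a1*, named after their values were seen, were at 233 and 601 CPM in GOAT KO 1139, against 8.14 to 20.4 and 42.4 to 138 CPM in the others labelled GOAT KO. They were at 31.9 and 355 CPM in WT 1120, against 12.4 to 14.6 and 50.2 to 58.7 CPM in the other WT libraries. Over all genes, WT 1120 differed from the other WT libraries by a chi-square per gene of 16.5 to 24.97, where those differed among themselves by 3.96 to 8.95. For GOAT KO 1139 these values were 11 to 14, against 4.51 to 6.28. The study left out 1 library of each group for its place on a scaling plot, and values without WT 1120 and GOAT KO 1139, most likely those 2, are given beside the values of all 8 as those of 6 libraries.

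The 6 genes differed widely in level. Levels between genes were compared as CPM per kilobase of annotated exon. *Rab6a* was highest, at 40.0 ± 1.85 per kb in WT (SD, n = 4), followed by *Rab3d*, the paralog known from secretory granules of exocrine and endocrine cells, at 11.1 ± 0.909. *Rab3a*, the main Rab3 protein of synaptic vesicles, lay at 4.76 ± 0.943 per kb. *Rab6b* and *Rab3b* were lower, at 1.84 ± 0.180 and 1.83 ± 0.501 per kb, and did not differ beyond their spread, with ranges of 1.64 to 2.005 and 1.39 to 2.55. The ranges of the other neighbours in this order did not overlap in WT. In the libraries labelled GOAT KO the levels were 38.8 ± 3.34 per kb for *Rab6a*, 11.96 ± 0.985 for *Rab3d*, 4.64 ± 0.601 for *Rab3a*, 1.13 ± 0.971 for *Rab6b* and 0.971 ± 0.268 for *Rab3b*. The order of the last 2 rests on GOAT KO 1139, since with 6 libraries *Rab6b* was at 0.656 ± 0.276 and *Rab3b* at 0.848 ± 0.127 per kb in GOAT KO (SD, n = 3 each). *Rab3c*, another Rab3 protein of vesicles in neurons, had 4 counts in all WT libraries together and 6 in all libraries labelled GOAT KO, which is 0.0711 CPM before TMM scaling over the 8 libraries (95% exact Poisson interval 0.0341 to 0.131, counting error only). It was the 1 gene of the 6 that did not pass the filter on low counts.

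*Rab3b*, a Rab3 protein of vesicles in endocrine and epithelial cells, was lower in the libraries labelled GOAT KO. It was at 8.98, 4.89, 5.82 and 6.11 CPM in WT 1118, 1119, 1120 and 1121, and at 4.73, 3.48, 2.87 and 2.62 CPM in GOAT KO 1139, 1140, 1141 and 1146. The groups did not overlap, although the highest GOAT KO library and the lowest WT library lay close together. The means were 6.45 ± 1.77 CPM for WT and 3.42 ± 0.943 CPM for GOAT KO (SD, n = 4 each), a ratio of 0.531 and a log2 fold change of -0.91 (SE 0.23). With 6 libraries the log2 fold change was -1.15 (SE 0.23). All GOAT KO values lay below all WT values for 1.27% of the 16601 genes tested. These are whole ovaries, in which fewer cells of a type and less RNA per cell cannot be told apart.

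*Rab6b* was lower in 3 of the 4 libraries labelled GOAT KO. It was at 9.91, 8.72, 8.23 and 10.1 CPM in the WT libraries in the same order, and at 2.26, 2.76 and 4.88 CPM in GOAT KO 1140, 1141 and 1146. GOAT KO 1139 held 12.8 CPM. That library was above every WT library, and the other 3 were below every WT library, so the groups overlapped through 1 library. The means were 9.24 ± 0.904 CPM for WT and 5.68 ± 4.88 CPM for GOAT KO (SD, n = 4 each), a log2 fold change of -0.71 (SE 0.43). Without GOAT KO 1139 the log2 fold change was -1.48, and with 6 libraries it was -1.54 (SE 0.23), the means then being 9.57 ± 0.742 and 3.30 ± 1.39 CPM (SD, n = 3 each). GOAT KO 1139 is the library with the high adipose markers, *Star* and *Cyp17a1*, and the part of these in its *Rab6b* level was not tested.

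**Figure D1:**
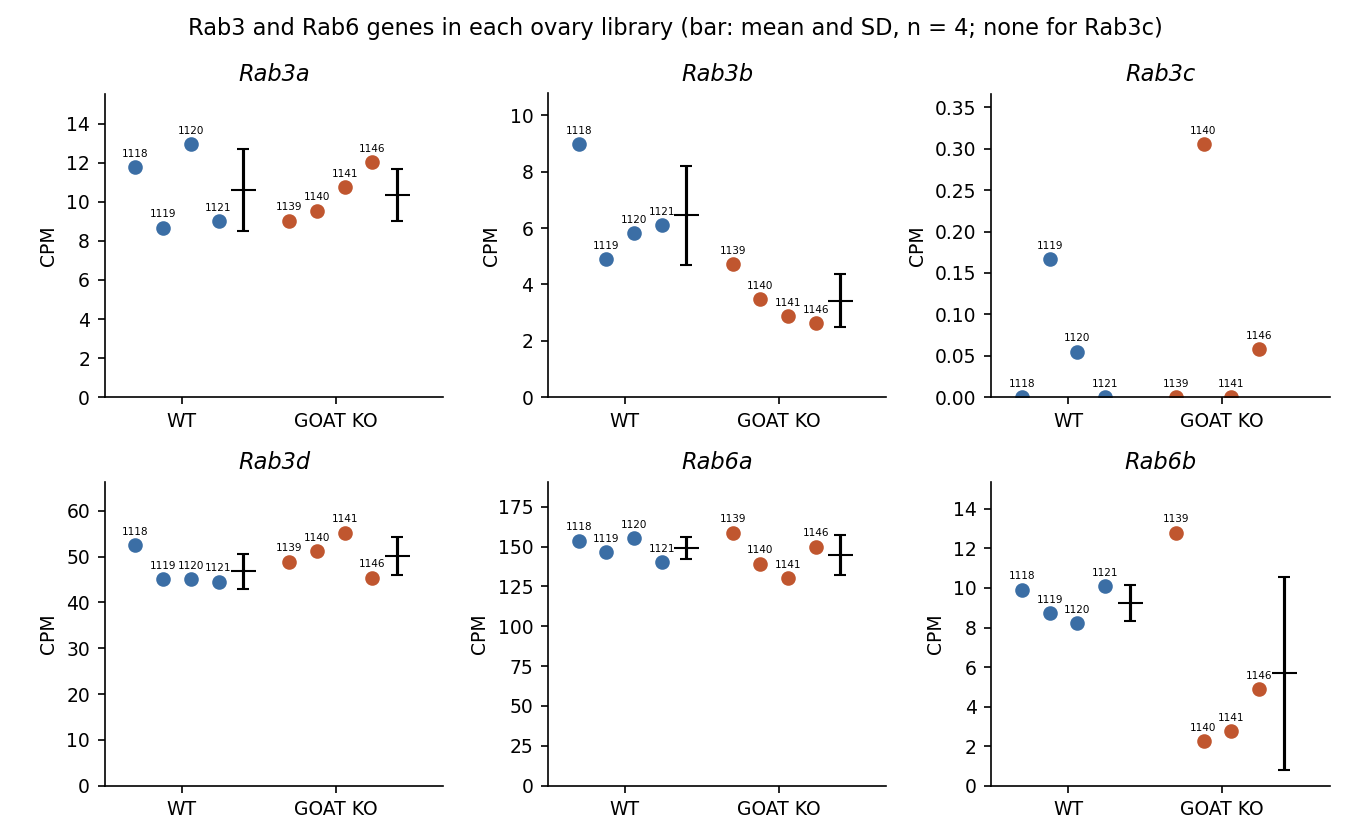
Level of each Rab3 and Rab6 gene in CPM (vertical axis, from 0) in the 4 libraries labelled WT (blue) and the 4 labelled GOAT KO (orange), with animal numbers above the points and the mean and SD at the right of each group, except for *Rab3c*, which had 10 counts in all. *Rab3b* does not overlap between the groups, and *Rab6b* overlaps through GOAT KO 1139 at 12.8 CPM.

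The other 3 measured paralogs had overlapping groups. *Rab3a* was at 11.8, 8.67, 12.9 and 8.996 CPM in WT, against 9.03, 9.53, 10.8 and 12.03 CPM in GOAT KO, in the order of animal numbers above, with a log2 fold change of -0.03 (SE 0.15) and of 0.14 (SE 0.15) with 6 libraries. *Rab3d* was at 52.5, 45.0, 45.0 and 44.5 CPM in WT, against 48.9, 51.2, 55.2 and 45.4 CPM in GOAT KO, with a log2 fold change of 0.10 (SE 0.08). *Rab6a* was at 154, 146, 155 and 140 CPM in WT, against 159, 139, 130 and 150 CPM in GOAT KO, with a log2 fold change of -0.04 (SE 0.07). The range of the groups was shared in each of these genes, and the differences were within 2 SE.

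Genes were called by the filter of the study, an unadjusted p under 0.05 in edgeR's quasi-likelihood test with an absolute log2 fold change over 0.5. Of the 5 members tested, 1 was called (*Rab3b*), where 278 of the 16601 genes tested, or 1.67%, were called in either direction. With 6 libraries *Rab3b* and *Rab6b* were called, where 398 of 16641 genes, or 2.39%, were called. Since these genes were picked from this contrast, nothing is read from those counts. By direction, 0.958% of genes were called higher and 0.717% lower with all 8 libraries, and 1.32% higher and 1.08% lower with 6. At an unadjusted p under 0.05 with any fold change, 4.62% of genes passed with all 8 libraries and 9.46% with 6. At an adjusted p under 0.05 (Benjamini-Hochberg), 4 genes (0.0241%) passed with all 8 libraries and 20 (0.12%) with 6.

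**Figure D2:**
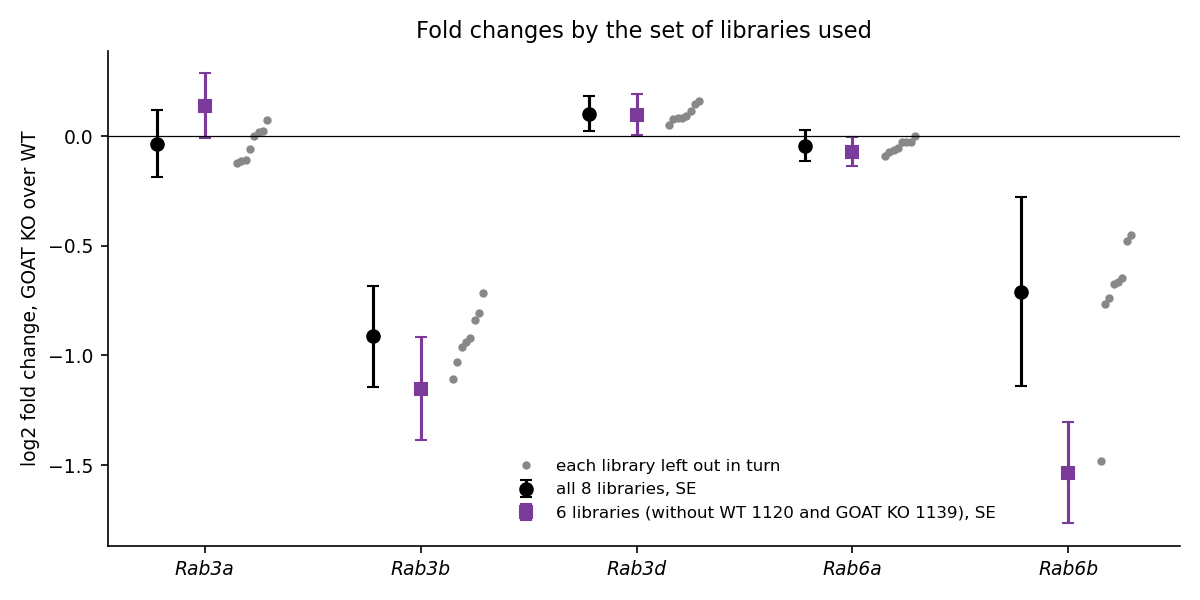
Log2 fold change of GOAT KO over WT (vertical axis) for the 5 genes that passed the filter, from all 8 libraries (black circles, SE), from 6 libraries (purple squares, SE) and with each library left out in turn (grey points). *Rab3b* stays between -1.11 and -0.72 when libraries are left out, while *Rab6b* runs from -1.48 to -0.45.

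The spread within the groups differed between the paralogs. For *Rab6b* the highest GOAT KO library held 5.66 times the lowest, a ratio that 0.512% of 16600 genes reached or passed in this group, while the median gene had a ratio of 1.21. In WT the ratio for *Rab6b* was 1.22, beside a median of 1.28. *Rab3b* had ratios of 1.84 in WT and 1.81 in GOAT KO. The ratio for *Rab6b* in GOAT KO rests on GOAT KO 1139, without which it was 2.16, reached or passed by 2.97% of genes beside a median of 1.15. *Rab3b* was at 1.33 without that library.

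Over the 8 libraries, log2 CPM of *Rab3b* and *Rab6b* had a Pearson r of 0.73, and 0.51 for the deviations from the group means. Both genes were picked for being lower in GOAT KO, so a positive r over the 8 libraries is partly built in. *Rab6a* and *Rab6b* had an r of 0.72, and 0.74 for the deviations. These values share the libraries and their normalization and are given as a description.

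The Rab3 genes together were at 17.7 ± 1.98 CPM per kb in WT, against 17.6 ± 0.851 in GOAT KO (SD, n = 4 each). *Rab3b* made up 12.5%, 8.66%, 9.07% and 10.6% of this sum in the WT libraries and 7.87%, 5.65%, 4.33% and 4.37% in the GOAT KO libraries, without overlap. This restates the levels by which *Rab3b* was picked and is no further result. Of the same sum, *Rab3d* made up 63.0% ± 3.54 and 67.9% ± 2.90, and *Rab3a* 26.7% ± 3.57 and 26.4% ± 3.68. Most of the Rab3 mRNA in the ovary was thus *Rab3d* and *Rab3a* in both groups.

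The Rab6 genes together were at 41.8 ± 1.77 CPM per kb in WT, against 39.9 ± 4.203 in GOAT KO. *Rab6b* made up between 3.78% and 5.05% of the sum in WT. In GOAT KO it made up 1.19%, 1.55% and 2.36% in 1140, 1141 and 1146, and 5.64% in 1139. *Rab6a* supplied the remainder, at least 94.4% in every library.

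**Figure D3:**
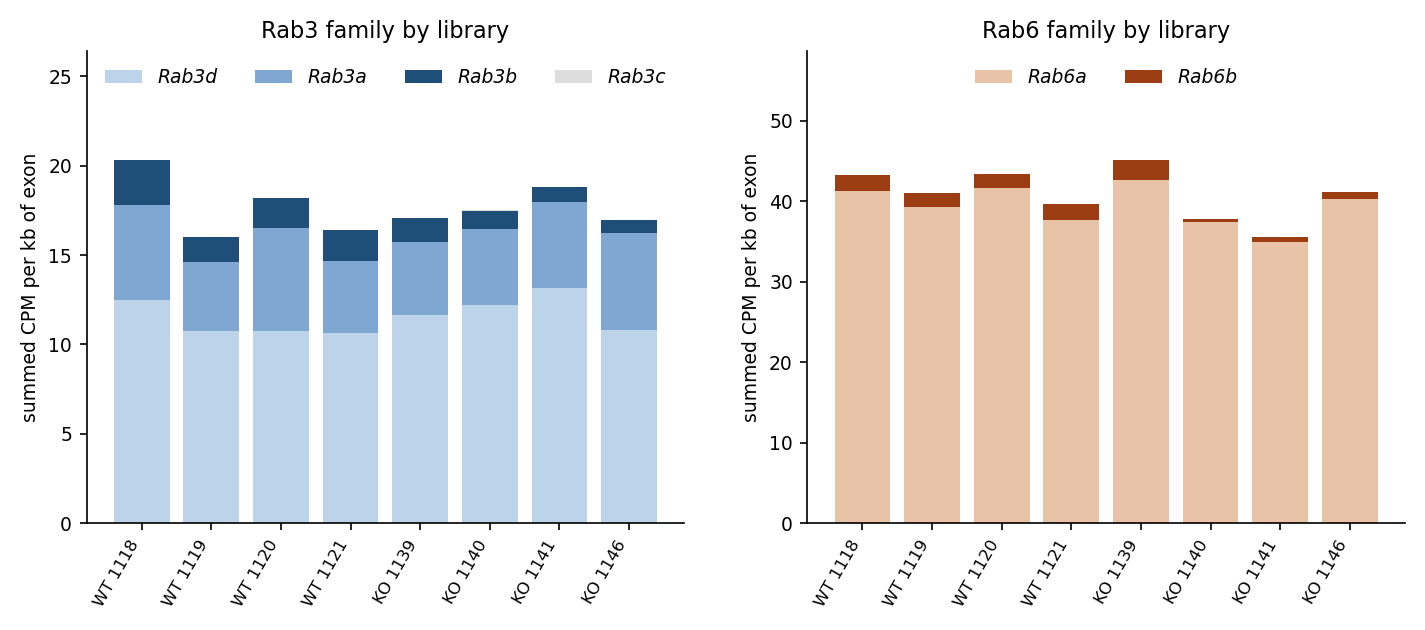
Summed level of the Rab3 genes (left) and Rab6 genes (right) in CPM per kb of exon (vertical axis, from 0) in each library, with each gene as a part of the bar and GOAT KO written as KO. *Rab3b* and *Rab6b* are small parts of their sums in all 8 libraries, and the sums of the groups overlap.

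Reads across splice junctions were listed for each library. For *Rab3b* 12 such reads were listed in WT and 3 in GOAT KO. For *Rab6b* there were 35 in WT, 8 to 10 per library, and 16 in GOAT KO, of which GOAT KO 1139 held 9. The paralogs had 111 and 109 (*Rab3a*), 275 and 240 (*Rab3d*) and 595 and 590 (*Rab6a*) for the groups in the same order. *Rab3c* had none. These come from the same reads as the gene counts and are not independent of them.

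The junctions also told the copies of *Rab6a* exon 4 apart, a ratio within the gene that the choice of the genes did not use. Each library lists only the junctions found in it, and several *Rab6a* junctions, on either side of these exons too, were listed in some libraries and not in others. The shares below count a junction that was not listed as 0 reads and are therefore shares of listed reads, not measures of absence. Reads that join a copy to the preceding or the following exon were summed, and those for the upstream and the downstream copy were 0 and 86 in WT 1118, 13 and 84 in WT 1119, 14 and 58 in WT 1120, and 0 and 81 in WT 1121. They were 7 and 66 in GOAT KO 1139, 6 and 43 in 1140, 0 and 63 in 1141, and 20 and 74 in 1146. The downstream copy thus held most of these reads in every library. WT 1118 and WT 1121 each also listed 1 read that joins the upstream copy to the downstream copy, which is not part of the share and shows a splice between the 2 copies at the depth of a single read. The share of the upstream copy was 8.21% ± 9.80 in WT, against 10.8% ± 8.76 in GOAT KO (SD, n = 4 each), with overlap. The difference of 2.57 percentage points had p = 0.743 in a two-sided exact permutation test, which cannot give a p below 0.0286 here. In the 5 libraries that listed a junction of the preceding exon with the upstream copy, its share was 13.4% and 19.4% for WT 1119 and 1120, and from 9.59% to 21.3% for the GOAT KO libraries. With the junction on the 5′ side alone, WT 1119 was at 20.3% and WT 1120 at 15.9%, so that their order turned with the junctions that were listed.

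The rest of the Rab family is the nearest comparison for the members. Of 53 other genes with a Rab symbol and number, 50 passed the filter. By edgeR's quasi-likelihood test 0 were called, where 1.67% of all genes tested were. In the same test 3 had an unadjusted p under 0.05, where 4.62% of all genes tested had. DESeq2 and limma-voom called 0. Nothing is read from these counts, which are near the shares over all genes. The median log2 fold change of these Rab genes was 0.01, where that of all genes tested was near 0, and they ranged from -0.39 to 0.53. The 3 genes, named after their values were seen, were *Rab33a* (0.43, SE 0.16), a Rab of the Golgi, *Rab36* (0.21, SE 0.08) and *Rab40b* (0.39, SE 0.17). The groups did not overlap for *Rab33a* and *Rab40b*, higher in GOAT KO, as for 1.64% of all genes tested. *Rab18*, a Rab of lipid droplets and the endoplasmic reticulum, and *Rab1*, which acts between the endoplasmic reticulum and the Golgi, had the highest levels in CPM, with log2 fold changes of 0.01 (SE 0.08) and 0.05 (SE 0.07).

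**Figure D4:**
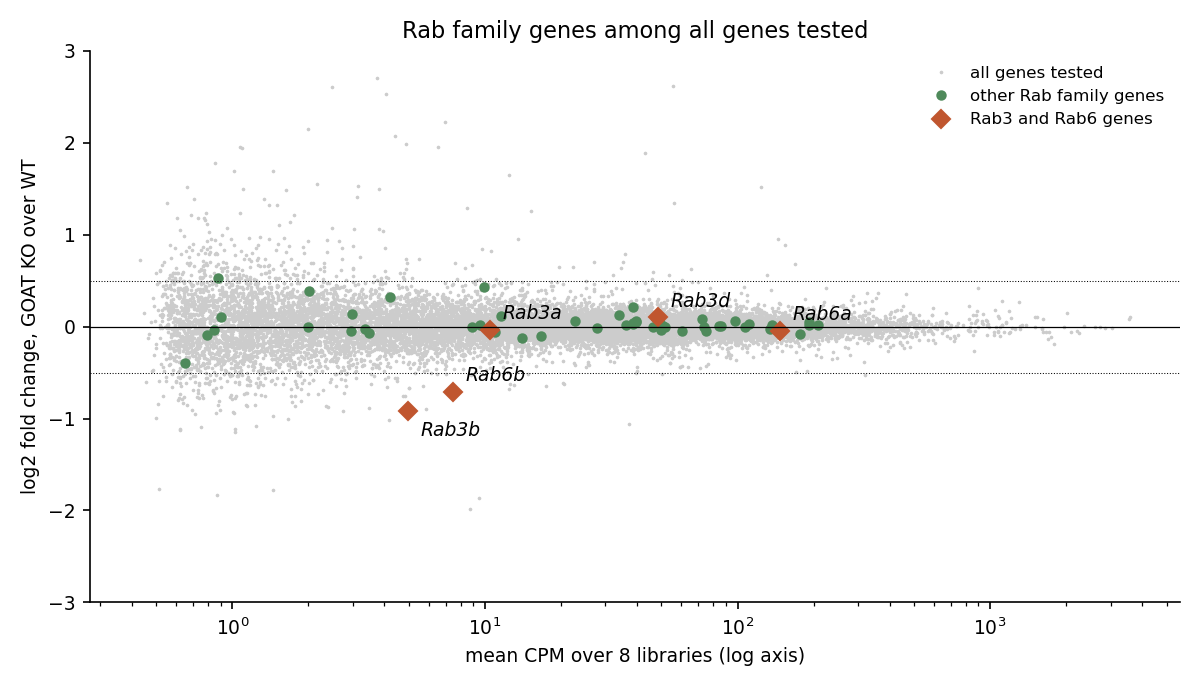
Log2 fold change of GOAT KO over WT (vertical axis) against mean CPM over 8 libraries (horizontal log axis) for all genes tested (grey), other Rab family genes (green) and the Rab3 and Rab6 genes (orange), with dotted lines at the fold limit of 0.5 and 8 genes outside the plotted range. The 50 other Rab genes tested run from -0.39 to 0.53, and *Rab3b* at -0.91 and *Rab6b* at -0.71 had been picked for being lower, so their place below them is no finding.

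Among 27 genes listed as Rab3 partners in a broad sense, not all of them direct regulators or effectors, 25 passed the filter. Of these 1 was called, lower in GOAT KO, beside 0.717% of all genes called lower. The median log2 fold change of the list was -0.03. In edgeR's quasi-likelihood test 3 of its genes had an unadjusted p under 0.05, where 4.62% of all genes tested had. The gene called was *Unc13a*, which primes synaptic vesicles for fusion. It was at 1.05, 1.67, 1.43 and 1.31 CPM in WT, against 1.08, 1.04, 0.870 and 0.697 CPM in GOAT KO, with overlap. Its log2 fold change was -0.57 (SE 0.23), with an unadjusted p of 0.0283 and an adjusted p of 0.983 in edgeR's quasi-likelihood test (Benjamini-Hochberg). The call was lost with DESeq2 and without WT 1119, WT 1120, GOAT KO 1141 or GOAT KO 1146. With 6 libraries *Rims2*, a Rab3 effector of the active zone, was called as well, at -0.81 (SE 0.18), against -0.37 (SE 0.28) with all 8. *Sytl4*, which encodes granuphilin, an effector on dense-core granules, and *Unc13b*, a relative of *Unc13a*, had the highest levels in CPM of this list, with log2 fold changes of 0.20 (SE 0.08) and -0.06 (SE 0.11). *Sytl4* had an unadjusted p of 0.0219 in edgeR's quasi-likelihood test with an adjusted p of 0.983 (Benjamini-Hochberg), and did not reach the fold limit. The third gene at an unadjusted p under 0.05, named after its value was seen, was *Rab3ip*, at 0.18 (SE 0.08).

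Among the regulators, motors and golgins of Rab6, 34 symbols were listed, of which 31 were in the count table and 29 passed the filter. Of the 3 symbols not in the table, 1 is an older name of *Gorab*, which the list also holds. The log2 fold changes of the tested genes lay between -0.10 and 0.05, with a median of -0.03. By edgeR's quasi-likelihood test 0 were called and 0 had an unadjusted p under 0.05, where 1.67% and 4.62% of all genes tested did. A list of this size would hold few or none at those shares. DESeq2 and limma-voom called 0. *Golgb1*, the golgin giantin, was at 338 ± 31.9 CPM in WT, against 325 ± 15.7 in GOAT KO. *Dennd5a*, a Rab6-binding protein, was at 308 ± 20.3 and 316 ± 8.32 CPM (SD, n = 4 each).

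The enzymes and carriers that attach the lipid anchor of Rab proteins and recycle them all passed the filter, 17 of 17. By edgeR's quasi-likelihood test 0 were called and 0 had an unadjusted p under 0.05, where 1.67% and 4.62% of all genes tested did. A list of this size would hold few or none at those shares. The median log2 fold change was 0.00 with a range of -0.11 to 0.09, and DESeq2 and limma-voom called 0. *Gdi2*, whose protein takes GDP-bound Rabs off membranes, was at 305 ± 5.80 CPM in WT, against 298 ± 8.86 CPM in GOAT KO (SD, n = 4 each).

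Of 40 listed genes of the fusion machinery of secretion, 39 were in the count table and 33 passed the filter. Of these 0 were called by edgeR's quasi-likelihood test, by DESeq2 or by limma-voom, where edgeR called 1.67% of all genes tested. A list of this size would hold few or none at that share. Where 4.62% of all genes tested had an unadjusted p under 0.05 in edgeR's test, 1 of the list had. That was *Cadps2*, which acts in the priming of dense-core granules, named after its value was seen, at 0.25 (SE 0.10). *Syt7*, a calcium sensor of exocytosis, and *Napa*, which helps to take SNARE complexes apart, had the highest levels and log2 fold changes of 0.11 (SE 0.08) and -0.03 (SE 0.05).

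Of 19 genes for cargo and processing enzymes of dense-core granules, 9 passed the filter and 0 were called by edgeR's quasi-likelihood test, by DESeq2 or by limma-voom. In edgeR's test 0 had an unadjusted p under 0.05. Over all genes tested, 1.67% were called and 4.62% had such a p, so a list of this size would hold few or none. The median log2 fold change of the list was 0.04. *Cpe*, which encodes carboxypeptidase E, was at 971 ± 59.6 CPM in WT, against 988 ± 60.1 in GOAT KO. *Pam*, whose enzyme amidates peptide hormones, was at 185 ± 11.3 and 187 ± 10.7 CPM.

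**Figure D5:**
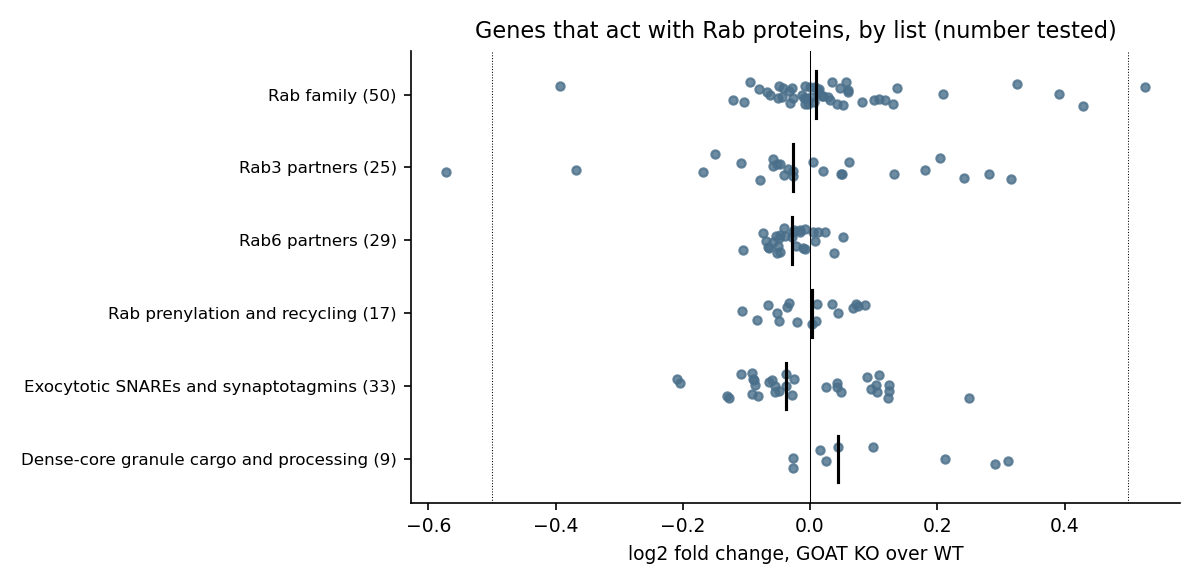
Log2 fold change of GOAT KO over WT (horizontal axis) of every gene tested in the list of other Rab genes and in the 5 lists of genes that act with Rab proteins, 1 point per gene, with the median as a black bar and the fold limit of 0.5 as dotted lines. The Rab6 partners lie between -0.10 and 0.05, and the 1 gene called, *Unc13a*, is the lowest of the Rab3 partners at -0.57.

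The genes beside *Rab3b* and *Rab6b* on their chromosomes were not called. Around *Rab3b*, *Kti12* and *Txndc12* on one side and *Nrd1* and *Osbpl9* on the other had log2 fold changes of -0.08 (SE 0.08), 0.05 (SE 0.06), 0.06 (SE 0.05) and -0.05 (SE 0.05). Around *Rab6b*, *Ryk*, *Slco2a1* and *Srprb* were at -0.09 (SE 0.05), -0.12 (SE 0.16) and 0.03 (SE 0.11). *Trf*, which encodes transferrin, was at 0.93 (SE 0.57) with 6.52 CPM in GOAT KO 1139 and at most 1.996 CPM in every other library, and at -0.14 (SE 0.35) with 6 libraries.

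The genes whose log2 CPM followed the members most closely over the 8 libraries, among 16601, are named by their Pearson r as a description, since all share the libraries and their normalization. For *Rab3b* they were *Scn2b* (r = 0.98), a sodium channel subunit, *Zfyve19* (r = 0.96) and *Gm12696* (r = 0.95). For *Rab6b* they were RP23-148G12.3 (r = 0.97), *Proca1* (r = 0.96) and *Ntn5* (r = 0.95), a netrin. Their log2 fold changes were smaller than those of the members, at -0.27, -0.20 and -0.34 for the first group and at -0.38, -0.23 and -0.53 for the second. With 6 libraries they were at -0.37, -0.23 and -0.41 and at -0.64, -0.51 and -0.79. *Proca1* and *Ntn5* were called with 6 libraries, as were 2.39% of all genes, and none of the others was.

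Markers of cell types that could hold these genes were set beside them. The summed level of 8 neuronal markers was 29.7 to 33.2 CPM in WT, against 27.9 to 33.1 CPM in GOAT KO, with 1 of 7 tested called, where 1.67% of all genes were called in either direction. This was *Prph*, a filament protein of peripheral neurons, at 1.07 (SE 0.41), whose call was lost without WT 1119, WT 1121 or GOAT KO 1139. *Dbh*, the enzyme of noradrenaline synthesis in sympathetic neurons, did not pass the filter with all 8 libraries. Its groups did not overlap, at 0.595 ± 0.0274 CPM in WT, against 0.230 ± 0.0503 in GOAT KO (SD, n = 4 each). Of the genes tested, a set without *Dbh*, 1.27% had every GOAT KO value below every WT value. *Dbh* was called lower in each of the 7 alternatives that tested it, at log2 fold changes of -1.49 to -1.26. Where the filter was used, *Dbh* passed it only through its WT level, and these alternatives share most of their libraries. The calls are therefore not read as support. The summed level of 6 glial markers was 61.1 to 76.4 and 58.5 to 93.4 CPM, with 0 of 3 called. Granulosa cell markers were at 4614 to 5670 and 5170 to 5809 CPM, oocyte markers at 1165 to 1394 and 1207 to 1431 CPM, and theca and steroidogenic markers at 1967 to 3118 and 2493 to 3165 CPM, with 0 of 6, 0 of 9 and 0 of 5 called by edgeR's quasi-likelihood test, by DESeq2 or by limma-voom and 2, 2 and 0 at an unadjusted p under 0.05. The 6 granulosa cell markers ran from -0.21 for *Amh*, the hormone of growing follicles, to 0.47 for *Fshr* on the log2 scale. *Fshr*, the receptor for follicle-stimulating hormone in granulosa cells, had a log2 fold change of 0.47 (SE 0.16) with all 8 libraries and was called higher with 6, at 0.68 (SE 0.13). Markers of the surface epithelium were at 113 to 149 and 127 to 154 CPM, those of the oviduct at 5.51 to 12.2 and 7.12 to 15.5 CPM and those of leukocytes at 26.6 to 40.8 and 27.3 to 33.0 CPM, with 0 called in each. In edgeR's quasi-likelihood test 1, 0 and 0 of them had an unadjusted p under 0.05, where 4.62% of all genes tested had. The ranges of the groups overlapped for each of these lists. All 4 tested adipose markers were called higher with all 8 libraries, and 1 (*Plin1*) with 6, with DESeq2 or with limma-voom. Without GOAT KO 1139 alone 0 of 4 were called. The marker genes were named after their values were seen. No marker was at 0 in all 8 libraries. The part of these markers in the levels of *Rab3b* and *Rab6b* was not tested.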

How the data were processed

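The authors sequenced RNA from the ovaries of 8 mice, 4 per genotype, as single reads of 50 bases, 1 library per mouse. The authors aligned the reads with TopHat2 2.0.14 (genome mm10), and the deposited gene counts are whole numbers per symbol without normalization. The deposited junction files hold counts of reads across splice junctions. The transcripts assembled with StringTie 1.0.4 were not used. The counting tool and its use of the strand are not given in the sources used here.

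Differences were tested on the counts in R 4.3.3 with edgeR 4.0.16, using TMM scaling, filterByExpr (minimum count 10, minimum total count 15) and the quasi-likelihood test with Benjamini-Hochberg adjustment over all genes. The SE was obtained from each log2 fold change and the F of its test, as their quotient with F under a square root. CPM are TMM-normalized. Positions, exon lengths and sequences were taken from GRCm38 with the GENCODE annotation, of a later release than that of the authors. Code was tested on simulated counts. Library totals of 16147216 to 19481798 counts leave genes of few counts, such as *Mboat4*, with large counting error. Pairs of libraries of one group differed by more than the sampling noise, so each counted as 1 replicate.

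Alternatives were RLE size factors, no filter, DESeq2 1.42.0, limma-voom (limma 3.58.1), 6 libraries and each library left out, for the gene lists and the marker lists alike. Named genes were the members, *Mboat4*, called genes and the 2 highest of each list, the 2 closest tested neighbours to either side of *Rab3b* and *Rab6b*, and the 3 most like each in pattern. One gene that this rule names is not reported here. The members and all lists were chosen with earlier results of these data known. Marker lists and gene lists have their results in the report.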

Additional observations from a re-analysis of the deposited data

Results flagged for a closer look

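In groups of 4 libraries, a value was noted where the highest or lowest library lay apart from the other 3 by nearly the whole range of its group. Of 112 groups checked, 10 had such a library, and chance gives about 1 in 20. The groups are those of the named genes, of genes named after their values were seen, some of them for a library that stood apart, and of the summed marker lists, so the count is not set against chance. *Rab3d* was at 52.5 CPM in WT 1118 and at 44.5 to 45.0 CPM in the other 3 WT libraries. *Txndc12*, a neighbour of *Rab3b*, was at 68.1 CPM in GOAT KO 1139, where the other 3 GOAT KO libraries were at 75.6 to 76.1 CPM. *Mboat4* was at 0.164 CPM in WT 1121, which is 3 counts, and at 0.0549 to 0.0620 CPM in the other WT libraries, which is 1 count each. *Cadps2* was at 14.2 CPM in WT 1121, against 11.6 to 11.96 CPM in the other WT libraries.

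The other 6 groups are of cell type markers. *Star* was at 31.9 CPM in WT 1120, against 12.4 to 14.6 CPM in the other WT libraries, and at 233.5 CPM in GOAT KO 1139, against 8.14 to 20.4 CPM in the others labelled GOAT KO. *Cyp17a1* was at 355 CPM in WT 1120, against 50.2 to 58.7 CPM, and at 601 CPM in GOAT KO 1139, against 42.4 to 138 CPM. The summed adipose markers were at 342.5 CPM in GOAT KO 1139, against 16.6 to 22.7 CPM, and the summed neuronal markers at 27.9 CPM in GOAT KO 1146, against 32.2 to 33.1 CPM. The part of these in the levels of *Rab3b* and *Rab6b* was not tested.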

How the results depend on the processing

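No paired analysis was possible because WT and GOAT KO mice share no replicate numbers. Over all genes 278 were called, 691 with no filter on low counts and 231 to 437 when libraries were left out in turn, the highest without WT 1120. Counts of the Rab6 partners, prenylation and exocytosis lists stayed at 0 in all 13 alternatives. The log2 fold changes of *Rab3a*, *Rab3b*, *Rab3d* and *Rab6a* moved by less than the spread between replicates in all 13. That of *Rab6b* was -0.71 with all 8 libraries, -1.54 with 6, -1.06 with limma-voom and -1.48 to -0.45 when libraries were left out, the lowest without GOAT KO 1139, which held the highest level, and the highest without GOAT KO 1140. Other Rab genes called ranged from 0 to 2 when libraries were left out, 1 without WT 1119 (*Rab37*) and 2 without GOAT KO 1139 (*Rab17* and *Rab37*). Rab3 partners called were 1, 0 with DESeq2, 2 with 6 libraries and 0 to 2 when libraries were left out, with 0 without WT 1119, GOAT KO 1141 or GOAT KO 1146, 2 without GOAT KO 1139 and *Rims2* in place of *Unc13a* without WT 1120. Dense-core granule genes called were 0, 3 with no filter (*Pcsk1*, *Pnoc* and *Nts*) and 0 to 1 when libraries were left out (*Pnoc*, without GOAT KO 1139, 1140 or 1146). The difference in the *Rab6a* exon share was 2.57 percentage points, 6.71 with 6 libraries, 1.74 from the junction on the 5′ side alone (the other side was not listed in 3 libraries) and -0.93 to 6.31 when libraries were left out. Restricting it to the 5 libraries that list the junctions of the preceding exon with both copies, an alternative chosen after seeing the data, gave -2.05. Among marker genes, *Fshr* was also called higher without WT 1120, GOAT KO 1139 or GOAT KO 1140, *Star* in 4 alternatives, *Figla* in 2, *Cyp17a1* and *Cyp11a1* in 1 each, *Pax8* in 6 and *Dnah5* in 3. *Pax8* and *Pnoc* failed the filter with all 8 libraries. Where the filter was used, *Pax8* passed only through its GOAT KO level and *Pnoc* only through its WT level. Their calls are therefore not read as support. Except as stated, the cause of the changes between alternatives was not tested. With exon length taken from the longest transcript, *Rab6a* in WT was at 46.3 CPM per kb and *Rab3a* at 6.81, and the order of *Rab3b* and *Rab6b* turned in WT.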
